A study of Homo sapiens with 8 samples.

Results

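The late steps of cholesterol synthesis, from the closing of oxidosqualene into lanosterol to cholesterol itself, were described here through 7 host genes: LSS, CYP51A1, MSMO1, NSDHL, EBP, SC5D and DHCR7. A small open reading frame (smORF) belonged to the group when its annotated gene name was one of these 7, whatever its values. The 7 genes themselves were chosen with earlier results of these data known. By this rule 23 of the 24199 smORFs of the series, in 7 of its 7369 host genes, were members. The libraries were made by Ribo-Seq, the sequencing of RNA pieces that ribosomes shield from nuclease, from Caco-2, an established line from a human colon adenocarcinoma that takes on enterocyte features in culture. There were 4 groups of 2 libraries: undifferentiated cells, differentiated cells without micelles (control), differentiated cells given taurocholate micelles without lipid (empty micelles), and differentiated cells given micelles with BSA, oleic acid and cholesterol (lipid micelles). The labels say neither how long nor at what dose the micelles were given, nor whether the lipid micelles also held taurocholate, so the parts played by albumin, fatty acid and cholesterol cannot be told apart. All 4 groups are 1 tumour line, and nothing says whether the libraries of a group came from separate cultures, so p-values measure the spread between libraries alone.

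Cholesterol is built in the endoplasmic reticulum from squalene. LSS, lanosterol synthase, closes the ring system, CYP51A1 removes the first methyl group of lanosterol, MSMO1 and NSDHL take off a further pair of methyl groups from another carbon, EBP shifts a double bond, SC5D introduces another, and DHCR7 reduces dehydrocholesterol to cholesterol. Transcription of most of these genes is driven by SREBP factors, which the escort protein SCAP carries to their cleavage when membrane sterol is low and keeps back when it is high. Enterocytes also take up cholesterol from bile salt micelles, so that both sources meet in the same cell.

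The counted smORFs lay outside the enzymes' own coding sequence. Of the 23, 17 were uORFs, in 5′ untranslated regions, and 6 were dORFs, in 3′ untranslated regions. None shared a base with a GENCODE coding sequence, and their counts therefore give ribosome footprints on the untranslated regions of these transcripts, not on the enzymes. The RNA level was not measured in these libraries, so more transcript and more ribosomes per transcript cannot be told apart, nor can fewer cells of a type and less RNA per cell. The uORF share, 73.9%, was near the 69.9% of all smORFs. Only 7 of the 23 began with ATG, against 43.4% of all smORFs. Their length ran from 8 to 110 amino acids with a median of 40, against 31 in the whole series. The PhyloCSF score, which is positive where substitutions between species look like those of coding sequence, had a positive maximum in 1 member, IEC_05981 of NSDHL (2.89), against 12.9% of all smORFs. The smORFs were unevenly spread, with 8 in DHCR7, 7 in MSMO1, 4 in EBP and 1 in each of the other 4 genes. They formed 14 groups of overlapping frames, and 12 of the 23 shared bases with another member. The annotation marked 8 of the 23 as hits to repeat elements. Among these were the most read smORFs of MSMO1 (IEC_00758) and EBP (IEC_06379), IEC_07970 and IEC_08075 of MSMO1 and the DHCR7 dORF IEC_16156. How reads that map to several places were counted is not given, so their counts may include reads from other repeat copies.

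The smORF with the highest total count in each gene is given to place the footprints, in the order of the enzymes' steps, by its first 30 bases from 5′ to 3′ as in the deposited annotation, with its first codon in capitals.
LSS IEC_17871: ATGcccaggtgggtgctctgggctggagcg
CYP51A1 IEC_19435: ACAgagcgcgccgtcgccgctcgagctcgc
MSMO1 IEC_00758: GCTccacccccaagccaggcgaggcaggtt
NSDHL IEC_05981: AGCtcggctgattctcggctcacgcgggag
EBP IEC_06379: CTAaagagagcccggagccagcgtgggagg
SC5D IEC_04568: ATGgagagacttcagcgcctgggactcggg
DHCR7 IEC_18111: AGGgtaggcggcgtggagcagcgcgcgcaa
On hg38 these lay at chr21:46189727-46190056 on the minus strand (LSS, the 3′ untranslated region), chr7:92134681-92134803 on the minus strand (CYP51A1), chr4:165327670-165333364 on the plus strand (MSMO1), chrX:152830999-152831634 on the plus strand (NSDHL), chrX:48521857-48523728 on the plus strand (EBP), chr11:121292896-121293030 on the plus strand (SC5D) and chr11:71447722-71448368 on the minus strand (DHCR7). All but that of LSS were in 5′ untranslated exons, and those of MSMO1, NSDHL, EBP and DHCR7 were spliced. Of these 7, those of LSS and SC5D began with ATG. The CYP51A1 frame lay for its whole 123 bases opposite an exon of the antisense gene CYP51A1-AS1, and because it is not stated whether reads were counted by strand, its counts may belong to either transcript. The 3 EBP uORFs, all spliced, shared exon bases on the same strand with the gene ENSG00000286268. How many bases were shared was not measured, and some of their reads may come from that gene.

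Library totals ran from 506382 to 884711 smORF counts, and in each differentiated group replicate 2 held more than replicate 1. At 10 counts or more, 12 of the 23 member smORFs (52.2%) were seen in all 8 libraries, against 27.4% of all smORFs. For a level per gene, 1 smORF from each overlapping group was counted (the one with the most reads), so that a read added once. Levels are CPM, counts relative to the library's TMM-scaled total over host genes. All 7 genes and 22 of the 23 smORFs passed the filter on low counts, the exception being the MSMO1 dORF IEC_00759. Of the markers of enterocytes, 4 of 6 tested were higher in control than in undifferentiated cells (FABP1, APOA4, APOB and CDX2) and APOA1 was lower, while 6 others, VIL1, SI and ALPI among them, were not tested for want of a smORF or of counts. Of 5 proliferation genes, 4 were lower. PDGFRA, a fibroblast marker, was at 108 CPM in undifferentiated and 1.29 CPM in control cells, and none of the goblet or enteroendocrine markers carried a smORF. The part of this change of state in the differences between undifferentiated and control cells was not tested.

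Per kilobase of counted smORF, MSMO1 had the highest and LSS the lowest level of the 7 in cells given empty micelles. MSMO1 was at 1934 ± 478 CPM per kb (SD, n = 2), DHCR7 at 677 ± 146, NSDHL at 662 ± 152, EBP at 566 ± 50.0, CYP51A1 at 480 ± 148, SC5D at 444 ± 69.6 and LSS at 90.1 ± 24.8. From DHCR7 down to SC5D, neighbours in this order overlapped in their libraries, whereas both MSMO1 libraries lay above and both LSS libraries below all the others. These are levels of footprints on untranslated frames and do not order the enzymes.

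**Figure D1:**
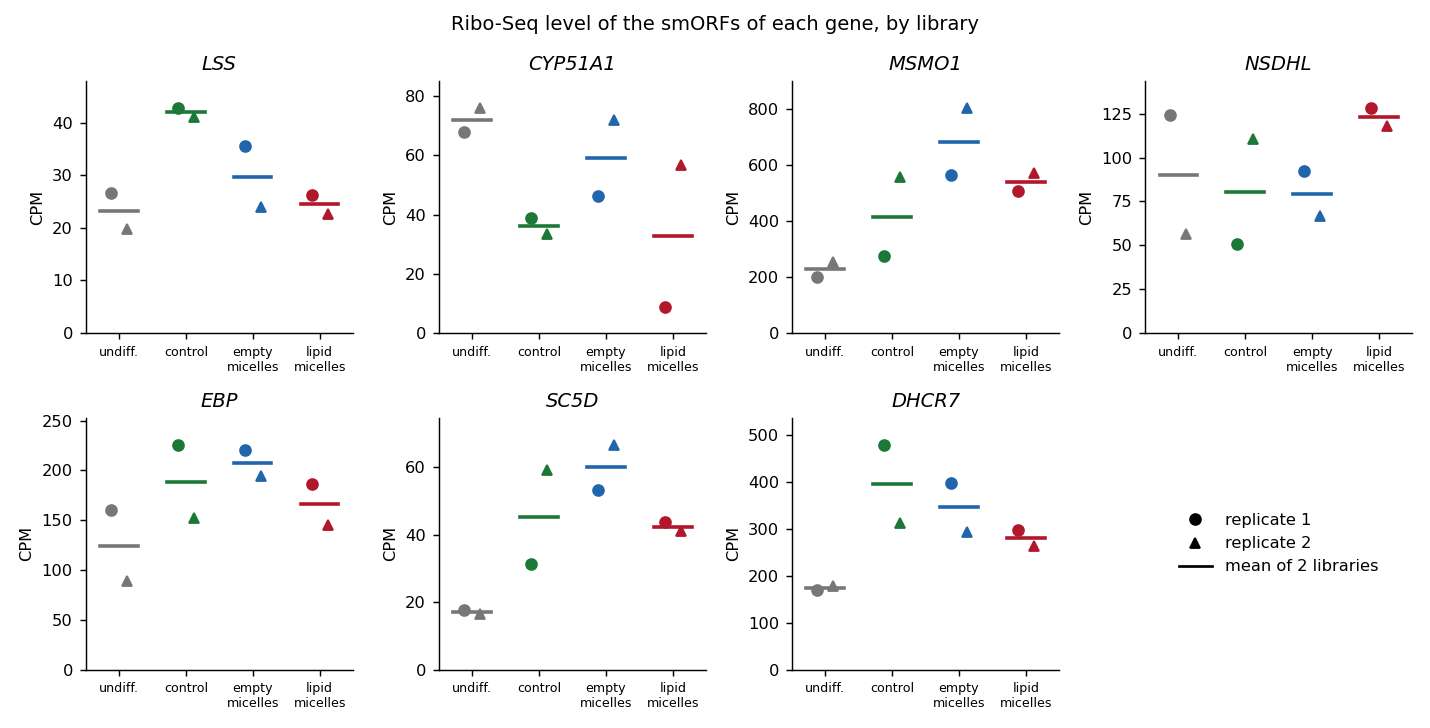
CPM of the counted smORFs of each gene (y axis, from 0) in the 4 groups (x axis), with circles for replicate 1, triangles for replicate 2 and a bar for the mean of the 2 libraries. Lipid micelle libraries sit below both empty micelle libraries in EBP and SC5D and above them in NSDHL, and overlap them in the other 4 genes.

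The question of the main comparison was whether the lipid cargo changed the footprints on these transcripts, by setting lipid micelles against empty micelles. No member was called changed, although 6 of the 7 genes had a fitted level below that with empty micelles. To be called, a host gene or smORF had to differ at least 2-fold, which is 1 on the log2 scale, with an adjusted p (edgeR quasi-likelihood test, Benjamini-Hochberg) under 0.05. Of all 4887 host genes tested, 0% were called and DESeq2 called 2, while 198 (4.05%) lay under 0.05 before adjustment of p. Among the 7 members, none had an unadjusted p under 0.05 and DESeq2 called none. A fitted value below 0 was found in 50.5% of all host genes. The median log2 fold change was -0.32 over the 7 members and -0.005 over all genes tested. The fit of the 6 differentiated libraries with the replicate number as a block called 21 of 4586 host genes and again no member. Within the pairs of libraries with the same replicate number, 6 of the 7 members were lower with lipid in both pairs, as were 25.0% of all host genes. NSDHL was higher in both pairs, as were 25.7%. This order within pairs was counted after the values were seen and was not tested for the members as a set.

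LSS, which makes lanosterol, was counted in its single dORF at 10 and 9 reads with empty and 9 and 10 reads with lipid micelles. This was 35.5 and 24.0 CPM against 26.2 and 22.7 CPM, and the groups overlapped. The log2 fold change was -0.26 ± 0.49 (SE), with a 95% interval from -1.30 to 0.79. At some 10 reads a library, even a 2-fold change would lie within this interval on the lower side.

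CYP51A1, the demethylase that acts on lanosterol, was at 46.2 and 71.9 CPM with empty micelles. With lipid micelles its libraries stood far apart, at 8.75 CPM (3 reads) and 56.8 CPM (25 reads). The log2 fold change of -0.79 ± 0.55 (interval from -1.96 to 0.39) rested on that 1 library. It was -0.09 without lipid micelle replicate 1 and -2.73 without replicate 2, and neither was called. This was the lowest fitted value among the members and also the least certain.

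MSMO1, the methylsterol oxidase, carried the most reads. Its libraries held 159 and 302 reads with empty and 174 and 252 with lipid micelles, or 565 and 804 CPM against 507 and 573 CPM. Replicate 2 with lipid lay just above replicate 1 without, so the groups overlapped. The log2 fold change was -0.34 ± 0.28 (interval from -0.95 to 0.26).

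NSDHL, the dehydrogenase that works with MSMO1 to remove the same methyl groups, was the one gene with a fitted value above 0. It was at 92.4 and 66.6 CPM with empty and at 128 and 118 CPM with lipid micelles, so that both lipid libraries were higher. Its log2 fold change was 0.65 ± 0.40 (interval from -0.20 to 1.50, adjusted p = 0.996 by edgeR). Both libraries lay above in 16.4% of all host genes.

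EBP, the sterol isomerase, was at 220 and 194 CPM with empty and 187 and 145 CPM with lipid micelles. SC5D, the desaturase, was at 53.3 and 66.6 CPM against 43.7 and 40.9 CPM. In both genes each lipid micelle library lay below each empty micelle library, an order seen in 15.4% of all host genes. The log2 fold change was -0.32 ± 0.30 for EBP (interval from -0.96 to 0.32). For SC5D it was -0.51 ± 0.41 (interval from -1.38 to 0.36).

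DHCR7, the last reductase, was at 398 and 293 CPM with empty and 297 and 264 CPM with lipid micelles, and the groups overlapped. Its log2 fold change was -0.29 ± 0.25, and the interval from -0.84 to 0.25 was the narrowest of the 7. Summed over the 7 genes, the level was 1410 and 1520 CPM with empty and 1198 and 1221 CPM with lipid micelles, with both lipid libraries lower. Without MSMO1 the sums were 845 and 716 CPM against 691 and 648 CPM, again with both lower. In control cells the sums were 1145 and 1265 CPM, so that both lipid libraries lay between the control libraries. Without MSMO1 the control sums were 868 and 708 CPM, and both lipid libraries lay below them. Sums over other sets of genes were not made, so no share stands beside these orders, and they were not tested.

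**Figure D2:**
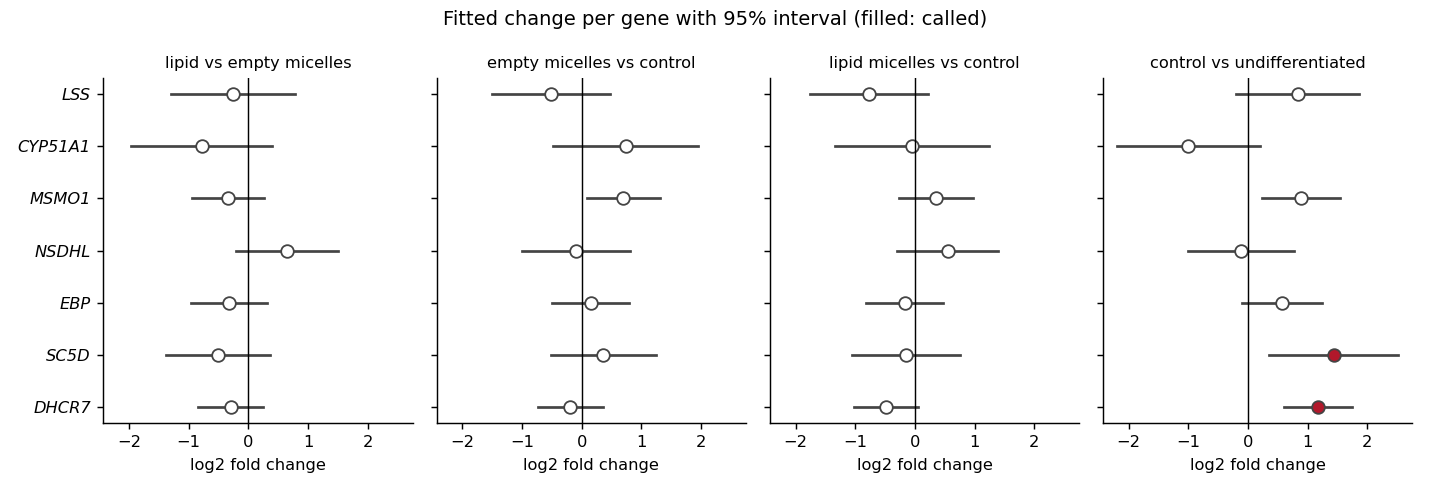
Fitted log2 fold change of each of the 7 genes (points) with its 95% interval (lines) in the 4 comparisons, filled where called. Only SC5D and DHCR7, in control against undifferentiated cells, are called. In the comparison of lipid with empty micelles every interval reaches across 0.

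Single smORFs showed the same order without a call. Of the 22 tested, 19 had a fitted value below 0 in lipid against empty micelles, against 51.2% of all 15182 smORFs. Since overlapping frames share reads, these are not 22 separate measurements. Both lipid libraries lay below both empty libraries in 8 of the 22 (16.9% of all smORFs) and above in 1, that of NSDHL (15.8%). Before adjustment, 1 of the 22, IEC_08074 of MSMO1, had a p under 0.05 (0.030), as had 4.13% of all smORFs, and its adjusted p was 0.999 by edgeR. DESeq2 called none of the members and none of all smORFs.

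Earlier steps of the pathway were described in the same way. For the mevalonate and squalene steps 6 genes are given, and since the list is not complete here, no count by direction or median is drawn from it. IDI1, which isomerises the isoprene unit, had the lowest value of the 6 (-0.77 ± 0.26, adjusted p = 0.996 by edgeR) and GGPS1, which makes geranylgeranyl diphosphate, the next (-0.42 ± 0.23). FDPS, which makes farnesyl diphosphate, had the highest of them (-0.10 ± 0.24), followed by HMGCS1, a synthase at the start of the pathway (-0.23 ± 0.32). None was called. Of 5 further genes that act after squalene, 2 were tested. TM7SF2, a sterol reductase, had a log2 fold change of -0.74 ± 0.25 and FAXDC2 of 0.05 ± 0.28, and neither was called.

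Among 15 genes of cholesterol uptake and SREBP control, 6 were tested, 4 had a value below 0 and the median was -0.20. SREBF2, which encodes the SREBP factor most tied to cholesterol genes, was at -0.81 ± 0.25 and STARD4, a sterol carrier, at -0.72 ± 0.31. MBTPS1, a protease that cleaves SREBP, was at 0.24 ± 0.24 and SCAP at 0.09 ± 0.23. Of 9 genes of esterification and efflux, 3 were tested, all with values below 0 and a median of -0.18. These were the exporter ABCA1 (-0.04 ± 0.25), NR1H2 (-0.18 ± 0.32) and NR1H3 (-0.29 ± 0.28), the last 2 being sterol-sensing nuclear receptors. No gene of these lists was called, and the lists share their libraries with the members. Before adjustment, p by edgeR was under 0.05 for SREBF2 (0.0063), IDI1 (0.0093), TM7SF2 (0.0105) and STARD4 (0.036). The other genes given from these lists were above 0.05, and 4.05% of all host genes lay under it. The lists were not tested as sets.

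**Figure D3:**
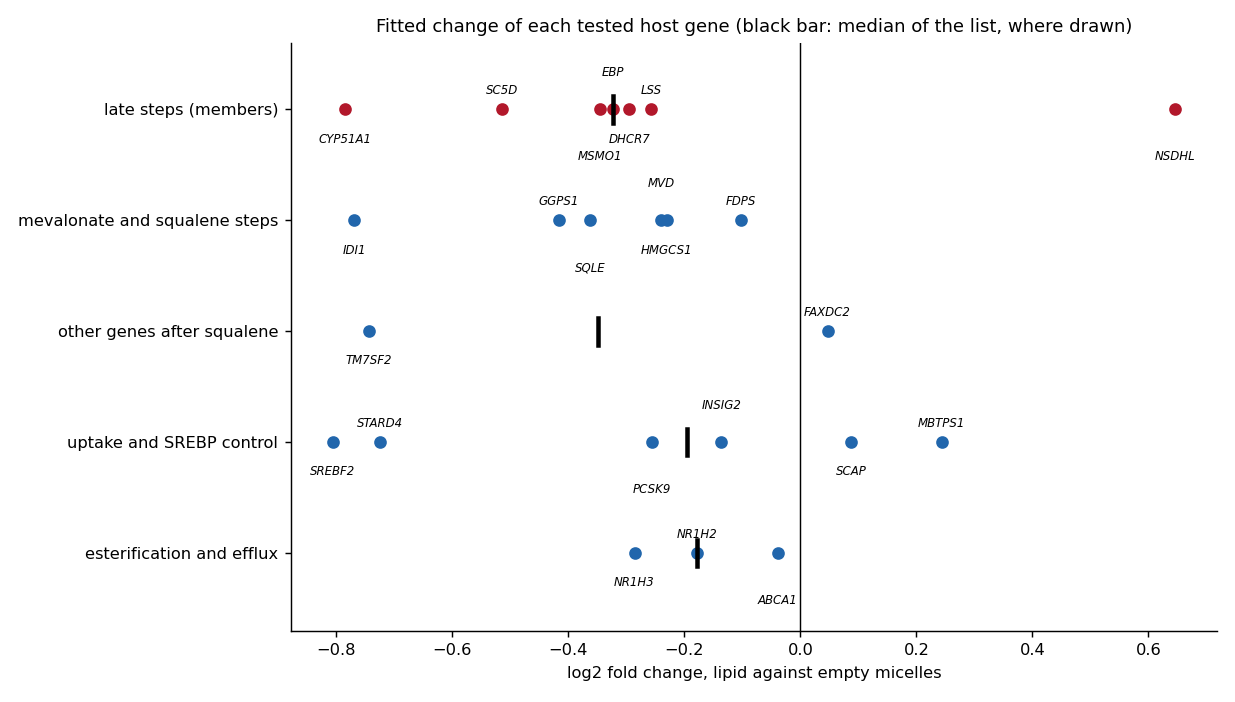
Fitted log2 fold change of each tested host gene in lipid against empty micelles (x axis), in 5 lists of cholesterol genes (rows), with a black bar at the median of each list except that of the mevalonate and squalene steps, which is given in part. The medians drawn lie between -0.35 and -0.18, and the genes shown run from -0.81 (SREBF2) to 0.65 (NSDHL).

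Empty micelles were then set against the differentiated control, which asks what the bile salt micelle did without lipid. No member was called changed by edgeR or DESeq2. Of all host genes tested 0.0409% were called, and 4.81% had an unadjusted p under 0.05. MSMO1 alone of the members had an unadjusted p under 0.05, with a log2 fold change of 0.70 ± 0.29 (unadjusted p = 0.029, adjusted p = 0.987 by edgeR). Its control libraries were at 276 and 556 CPM and both empty micelle libraries, at 565 and 804 CPM, lay above them. Leaving out 1 library moved the value between 0.33 (without control replicate 1) and 1.33 (without control replicate 2), and neither was called. CYP51A1 was likewise higher in both libraries, at 46.2 and 71.9 against 38.9 and 33.5 CPM (0.74 ± 0.57). LSS was lower in both, at 35.5 and 24.0 against 42.8 and 41.2 CPM (-0.52 ± 0.46). Both libraries were above in 15.0% and below in 16.7% of all host genes. The other 4 genes overlapped between the groups, with values from -0.19 ± 0.25 (DHCR7) to 0.36 ± 0.41 (SC5D). Within equally numbered pairs, CYP51A1, MSMO1 and SC5D were higher with empty micelles in both (24.3% of all host genes), and LSS and DHCR7 were lower in both (27.1%).

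Lipid micelles against the same control libraries gave no member call either, with 0% of host genes called and 4.56% at an unadjusted p under 0.05. None of the 7 members was among these, and DESeq2 called no host gene. LSS, at 26.2 and 22.7 against 42.8 and 41.2 CPM, and DHCR7, at 297 and 264 against 479 and 312 CPM, were lower in both libraries, an order found in 18.6% of all host genes. Their log2 fold changes were -0.78 ± 0.46 for LSS and -0.48 ± 0.25 for DHCR7 (adjusted p = 0.943 by edgeR). NSDHL, at 128 and 118 against 50.6 and 111 CPM, was higher in both (0.55 ± 0.39), as were 18.0% of all host genes. Its value was 0.16 without control replicate 1 and 1.28 without control replicate 2, with no call in either. The remaining 4 overlapped, from -0.17 ± 0.30 (EBP) to 0.36 ± 0.29 (MSMO1). MSMO1 and NSDHL were higher than control within both pairs (26.8% of all host genes), and LSS, EBP and DHCR7 were lower within both (28.6%). The comparisons share the control or the empty micelle libraries, so a value in one is not separate evidence for another.

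Control against undifferentiated cells was the one comparison in which members passed the test. For its mass spectrometry, the study kept differentiated Caco-2 plates longer in culture and held them overnight in medium without serum. Whether the cells of these libraries were grown so is not stated. Differentiation, culture age and serum therefore cannot be told apart here. DHCR7 and SC5D were called higher in control than in undifferentiated cells. Of all host genes 17.9% were called higher and 16.1% lower, so calls were common among all genes in this comparison. DHCR7 was at 169 and 178 CPM in undifferentiated and at 479 and 312 CPM in control cells, a log2 fold change of 1.17 ± 0.27 (adjusted p = 0.0033 by edgeR). Both control libraries lay well above, but without control replicate 1 the value was 0.86 and under the fold threshold. SC5D rested on few reads, 6 and 5 in undifferentiated and 8 and 23 in control cells, or 17.8 and 16.5 against 31.1 and 59.2 CPM. Its log2 fold change was 1.43 ± 0.51 (adjusted p = 0.036 by edgeR). The call of SC5D was lost without control replicate 2, where the value fell to 0.88 (adjusted p = 0.361). At values close to that in all libraries it was also lost without undifferentiated replicate 1 (1.50, adjusted p = 0.117), without undifferentiated replicate 2 (1.39, adjusted p = 0.128) and by DESeq2 (1.40, adjusted p = 0.145).

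MSMO1 passed the p threshold but not that of the fold (0.89 ± 0.31, adjusted p = 0.031 by edgeR). It was at 201 and 254 CPM in undifferentiated and 276 and 556 CPM in control cells, with control replicate 1 close to the undifferentiated level. Without that library the log2 fold change was 1.31 and the gene was called (adjusted p = 0.0042). LSS was higher in both control libraries (0.83 ± 0.48, adjusted p = 0.184), as were 35.7% of all host genes. CYP51A1 was lower in both, at 38.9 and 33.5 against 68.1 and 76.0 CPM (-0.998 ± 0.56, adjusted p = 0.170), as were 35.6%. EBP (0.57 ± 0.32) and NSDHL (-0.12 ± 0.42) overlapped between the groups. The undifferentiated libraries of NSDHL, 124 and 56.2 CPM, and its control libraries, 50.6 and 111 CPM, each spanned about the same range, and leaving out 1 library turned its sign.

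The fitted values of the smORFs of 1 gene differed in size, and differences between frames of a gene were not tested. Of the 22 member smORFs tested, 6 were called higher in control than in undifferentiated cells and none lower, against 17.9% and 15.5% of all smORFs. Called in either direction were 33.4% of all smORFs and 34.0% of all host genes. The 6 were 4 of MSMO1, the SC5D uORF and 1 dORF of DHCR7. The 3 MSMO1 frames that start with ATG are shown because their values differ most, by the first 30 bases with the start codon in capitals.
MSMO1 IEC_08074: ATGagcgaggaagggggagcaggcgggctc
MSMO1 IEC_08076: ATGcacgcgctgggcgggacgctggcagtg
MSMO1 IEC_00760: ATGaataaatatatatttaagtacagtttt
IEC_08074 (chr4:165327789-165327833) and IEC_08076 (chr4:165327865-165327942) are uORFs of 15 and 26 amino acids in the 5′ untranslated region on the plus strand, with no base in common. IEC_00760 (chr4:165342139-165342288) is a dORF of 50 amino acids.

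IEC_08074 held 11 and 9 reads in undifferentiated and 9 and 13 in control cells, and its log2 fold change was 0.05 ± 0.48 (interval from -0.96 to 1.05). It then held 24 and 50 reads with empty and 18 and 31 with lipid micelles. In CPM of the scaled smORF total these were 17.0 and 16.3 in control, 41.99 and 66.7 with empty and 25.8 and 34.8 with lipid micelles, with no overlap between these 3 groups. Of all 15182 smORFs, 2462 had both empty micelle libraries above both control libraries, and 2774 had both lipid micelle libraries above them. Both lipid libraries lay below both empty libraries in 16.9%. This frame was described after its values were seen. Empty micelles against control gave 1.72 ± 0.40, with an adjusted p of 0.518 by edgeR, and this was not called. IEC_08076 had 7 reads in each undifferentiated library, 31 and 29 in control, 27 and 32 with empty and 28 and 18 with lipid micelles. It was called higher in control than in undifferentiated cells (2.03 ± 0.47, adjusted p = 0.0031 by edgeR), while empty micelles against control gave -0.05 ± 0.38. The neighbouring uORFs thus differed in which comparison held their larger value, and the difference between them was not tested.

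IEC_00760 went from 6 and 1 reads in undifferentiated to 20 and 26 in control cells (2.61 ± 0.56, adjusted p = 0.0016 by edgeR). IEC_07970 (1.52 ± 0.38) and IEC_08075 (1.28 ± 0.39) were the other MSMO1 smORFs called, and they end at the same base as IEC_00758 and share reads with it. IEC_00758, which sets most of the gene's level and starts 3 bases after the annotated start of the gene, was not called (0.67 ± 0.38). It had 50 and 65 reads in undifferentiated cells but 40 and 171 in control cells, so that control replicate 1 lay far below replicate 2.

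**Figure D4:**
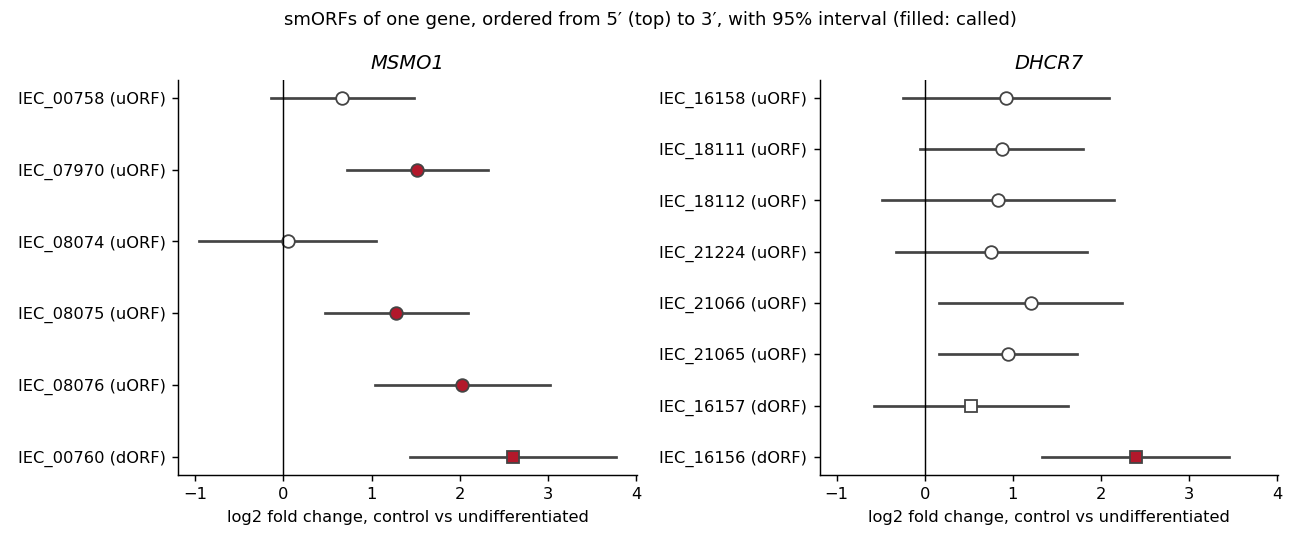
Fitted log2 fold change of each tested smORF of MSMO1 and DHCR7 in control against undifferentiated cells (x axis) with its 95% interval, ordered along the transcript, with circles for uORFs and squares for dORFs, filled where called. In MSMO1 the values run from 0.05 (IEC_08074) to 2.61 (IEC_00760), and in DHCR7 from 0.53 (IEC_16157) to 2.39 (IEC_16156).

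In DHCR7 the frames were mostly not called alone. All 8 had fitted values above 0, from 0.53 to 2.39, and only the dORF IEC_16156 passed (2.39 ± 0.50, adjusted p = 0.0015 by edgeR). This frame of 44 amino acids (chr11:71434713-71434844, minus strand) does not begin with ATG and is shown by its first 30 bases.
DHCR7 IEC_16156: ACTgggacactggggagaaaggggctttca
It held 4 and 5 reads in undifferentiated cells, 14 and 39 in control cells, 14 and 25 with empty and 23 and 32 with lipid micelles. The 6 uORFs had values from 0.76 to 1.20, and 2 of them, the leading IEC_18111 and IEC_16158, begin at the same base. In lipid against empty micelles all 6 uORFs had values below 0, from -0.86 ± 0.42 (IEC_21066) to -0.27 ± 0.56 (IEC_16158), and both dORFs had values above 0 (0.24 ± 0.39 and 0.12 ± 0.48), with none called.

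The replicates of DHCR7 differed in 1 direction in all 3 differentiated groups for each frame but IEC_21066, by their ratio in CPM after adding 0.5 to each. In each of the 3 differentiated groups, replicate 1 was above replicate 2 in CPM for 5 of the 6 uORFs, and below it for both dORFs. For IEC_16158 the ratio of replicate 1 to replicate 2 was 2.81 in control, 2.99 with empty and 2.90 with lipid micelles, and for IEC_18112 it was 3.26, 3.35 and 3.95. For the dORF IEC_16156 it was 0.54, 0.74 and 0.92. For the remaining uORF, IEC_21066, it was 1.86, 0.81 and 0.65. Of the 12333 smORFs with a mean of at least 10 counts in these libraries, 16.4% had replicate 1 above replicate 2 in all 3 groups. The share with replicate 2 above in all 3 groups was not counted, so none stands beside the dORFs. The 5 uORFs form 1 chain of overlapping frames that can share reads, so they are not 5 separate observations. Not every pair in the chain overlaps, since IEC_16158 and IEC_21065 have no base in common. In the fit with the replicate number as a block DHCR7 was not called in any micelle comparison.

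**Figure D5:**
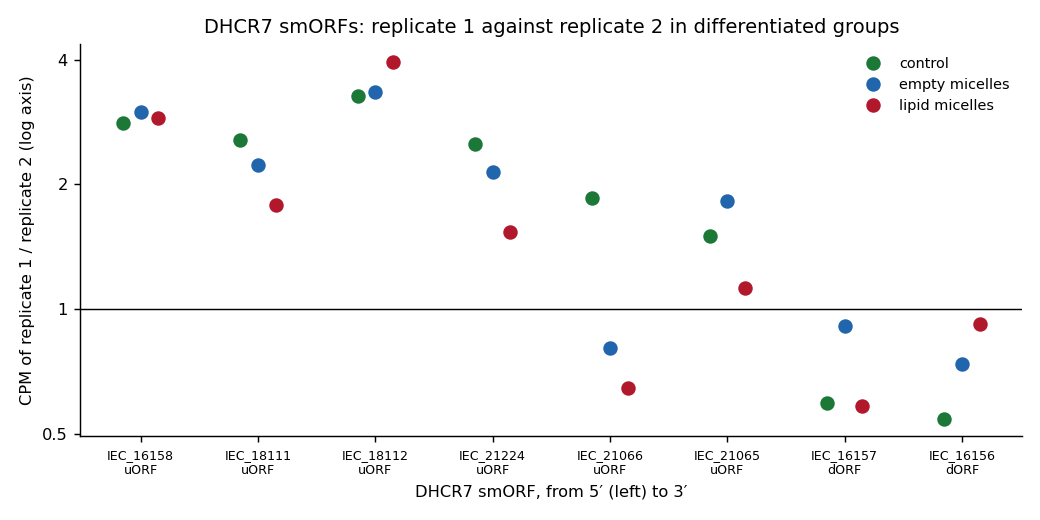
Ratio of the CPM of replicate 1 to that of replicate 2 (y axis, log scale) for the 8 DHCR7 smORFs, ordered along the transcript, in the 3 differentiated groups (colours). IEC_16158 lies between 2.81 and 2.99 in all 3 groups, and both dORFs lie below 1.

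The mean profile of the 7 members over the 6 differentiated libraries rested in 1 library on CYP51A1. That profile, the mean of the 7 centred log2 CPM values, was -0.14 and 0.09 in control, 0.19 and 0.17 with empty and -0.28 and -0.02 with lipid micelles. Without CYP51A1, which had 3 reads in lipid micelle replicate 1, that library was at -0.0068 in place of -0.28 and the other lipid library at -0.13. Of 1467 host genes with a mean of at least 50 counts, the 5 with the highest Pearson correlation to the profile of all 7 were BLCAP (0.97), IVNS1ABP (0.96), S100A14 (0.96), F2RL1 (0.95) and SPOPL (0.95). Without CYP51A1 their coefficients fell to between 0.43 (SPOPL) and 0.66 (IVNS1ABP) and 0 of the 5 stayed among the 5 highest, so that likeness to the members as a group could not be read from them.

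The RefSeq promoters of the members (GRCh38.p14, 250 bases before to 50 after each start) were searched on both strands, since SREBP and its partner NF-Y bind short known motifs. There were 9 promoters for the 7 genes. The core of the sterol regulatory element, searched as TCACNCCAC with N for any base, was in none of them and in 1.13% of all 35116 promoters. The letters CCAAT, the core that NF-Y binds, were in 7 of the 9, in every gene but CYP51A1, and in 34.6% of all promoters. In MSMO1, whose footprints were the most abundant, such matches lay 34, 76, 139 and 185 bases before the start. The one nearest the start is shown with the match in capitals.
MSMO1 promoter chr4:165327623-165327652, plus strand: agctctcgcaggCCAATaacgacaggacgg
A match is a description of the letters and not a measured binding site. Other forms of the sterol regulatory element and bases outside these promoters were not searched, so the lack of a match does not show that a gene has no such element.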

How the data were processed

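Ribo-Seq counts of Caco-2 cells were analysed as deposited. Per the labels and the study's methods, the authors mapped reads with STAR to hg38, built transcript models, gave each open reading frame a RibORF score, and used HOMER to count reads per smORF. The submitters' processing notes give STAR 2.7.11a. The deposited unit is the raw count per smORF and library, and all 8 count columns were used. How that counting treated strand, exons and multi-mapped reads is not given in the sources used here. The deposited PhyloCSF and RibORF score columns were used only to describe the smORFs.

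Host gene counts were the sum over 1 smORF per group of frames overlapping on 1 strand (the one with the highest total). edgeR 4.0.16 (TMM scaling, filterByExpr, quasi-likelihood test) modelled the group means of all 8 libraries together, over 4887 host genes and over 15182 smORFs, in R 4.3.3. Tests were two-sided and adjusted by Benjamini-Hochberg over all features tested. Scripts were tested on simulated counts with known changes in lipid against empty micelles. The changed features were drawn from all those tested and not matched to the members' counts. Of the features changed 2-fold, 16 of 192 host genes and 7 of 192 smORFs were called. Since a call needs a fitted change of at least 2-fold, many features changed exactly 2-fold miss it at any depth. At 4-fold, 169 of 194 host genes and 140 of 185 smORFs were called. The lack of a call therefore does not show the lack of a 2-fold change. Alternatives were DESeq2 1.42.0, other scalings and filters, other sums per gene, each library left out, and the replicate number as a block. Coordinates are hg38, and untranslated regions came from GENCODE 44. Depth limits single smORFs: members had between 3 and 302 counts per gene and library. The reads were not corrected for PCR duplicates.

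Equal replicate numbers were taken as pairs in the differentiated groups for the order within pairs and for the replicate block. The main fit held a group term alone, so its errors, intervals and p-values do not use the pairs. Deviations from the group mean correlated at 0.202 (control and empty micelles), 0.138 (control and lipid micelles) and 0.115 (empty and lipid micelles) over host genes. With undifferentiated cells the deviations correlated between -0.083 and 0.038, and these libraries were not taken as pairs. The members and lists were chosen with earlier results of these data known. Named were all members, the leading smORF of each, any member smORF called, the 2 highest and 2 lowest genes of each list in lipid against empty micelles, and the 5 genes most like the members' mean log2 CPM profile (pseudocount 1). Further member smORFs, the order within pairs and the profile without CYP51A1 were described after the values were seen. Only smORF and annotation tables were used, and the transcript assembly was not used here. 1 item of the list of mevalonate and squalene steps is not reported here, so that list is described in part.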

Additional observations from a re-analysis of the deposited data

How the results depend on the processing

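In the comparisons with micelles no member was called in the main fit or under any of the alternatives, at host gene or smORF level. With the main fit included, this was so over 105 counts in all. Among the alternatives was the replicate block in the 6 differentiated libraries, which called 0 members. It raised the host genes called from 0 to 21 (lipid against empty micelles), from 2 to 25 (empty micelles against control) and from 0 to 4 (lipid micelles against control). Without a low-count filter these counts were 13, 23 and 3, with DESeq2 2, 4 and 0. Over smORFs, where 0 were called in each, the block called 14, 15 and 1 and the fit without a filter 23, 36 and 4. The pairing of libraries by number changed no other call of a member gene, and in control against undifferentiated cells the replicate block left 2 member genes called and 5 member smORFs in place of 6. With lipid against empty micelles, 6 of 7 members were below 0 in each setting except without empty micelle replicate 1 (5 of 7) and with at least 10 counts in every library (3 of the 4 tested).

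In control against undifferentiated cells the 2 member genes called became 1 with at least 10 counts in every library (SC5D was then not tested), with DESeq2 and with the smORF of highest total alone, and 1 to 2 when libraries were left out. The 6 smORFs called became 2 with at least 10 counts in every library (12 members tested) and 3 to 7 when libraries were left out. All host genes called fell from 1664 to 702 with the same filter, in which 2744 were tested, and all smORFs called from 5070 to 1582, or to 3301 with DESeq2. DHCR7 was not called with its leading smORF alone (0.96, adjusted p = 0.123), and SC5D not with the sum over all smORFs of each gene (1.44, adjusted p = 0.052), which called MSMO1 instead (1.22, adjusted p = 0.0038). Leaving out single libraries turned the sign of some log2 fold changes that were not called. They ran from -0.81 to 0.59 for NSDHL in control against undifferentiated cells, and against control from -0.46 to 0.16 (DHCR7), -0.47 to 0.64 (NSDHL) and -0.11 to 0.46 (EBP) with empty micelles. With lipid micelles against control they ran from -1.98 to 0.67 (CYP51A1), -0.030 to 0.97 (MSMO1), -0.44 to 0.13 (EBP) and -0.47 to 0.44 (SC5D). LSS ran from -0.55 to 0.0045 in lipid against empty micelles. The cause was not tested.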
